A study of Mus musculus with 13 samples.

Results

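Mt1, Mt2, Mtf1, Slc30a1, Slc39a8 and Slc39a14 are 6 genes that hold, sense or move zinc in mouse cells, and their levels were followed through all 13 RNA sequencing libraries of a study of STAT5 tetramers in experimental autoimmune encephalomyelitis. They are 6 of 21073 genes in the deposited table and were taken from it by gene symbol. The set was selected on these data because Mt1 differed between STAT5 tetramer-deficient (DKI) and wild-type (WT) Th17 libraries. That comparison is therefore given as a description, without a test, and it supports nothing here.

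Experimental autoimmune encephalomyelitis is a mouse model of autoimmune inflammation of the spinal cord, started by injecting a myelin peptide (MOG35-55) in complete Freund's adjuvant. DKI mice, on the C57BL/6J background like the WT mice, carry knock-in changes of STAT5 that leave dimers but prevent tetramers, and every library except those of the WT Th17 group came from DKI mice. Th17 cells are CD4+ T helper cells that make IL-17. Cells of spleen and lymph nodes were taken on day 14 after immunization, expanded with the peptide under Th17 conditions, and sorted for CD4 after 3 days. There were 3 libraries of DKI cultures that received the chemokine CCL17 (withCCL17), 3 of DKI cultures labelled as expanded without it (noCCL17), 2 of DKI cultures whose labels name no CCL17 (the DKI set) and 2 of WT cultures. The other 3 libraries were 1 each of antigen-presenting cells (APCs) that had formed from monocytes in the DKI spinal cord, monocytes of the DKI spinal cord and monocytes of the DKI bone marrow, all sorted on day 14 after immunization. The myeloid mice received pertussis toxin (250 ng a dose). The labels disagree on whether the Th17 donors did, and they give no age, no sex and no number of animals per library.

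Metallothioneins are small cysteine-rich proteins that bind zinc and copper, buffer free metal and react with oxidants. MTF-1, encoded by Mtf1, is the transcription factor that senses zinc and switches on Mt1, Mt2 and Slc30a1 through short DNA words called metal response elements. Slc30a1 encodes ZnT1, which exports zinc across the plasma membrane. Slc39a8 encodes ZIP8 and Slc39a14 encodes ZIP14, importers that carry zinc, iron and manganese into cells. Glucocorticoids and inflammatory signals also raise metallothionein transcripts, and in T cells and macrophages zinc supply is known to affect activation.

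Mt1 and Mt2 lie next to each other on chromosome 8, with 5315 bases between them in the RefSeq annotation of GRCm38.p6 (mm10). Mt2 (Entrez 17750) spans chr8:94172618-94173567 and Mt1 (Entrez 17748) spans chr8:94178883-94180327. Their coding sequences are shown because both transcripts are compared below and reads of similar genes can be hard to assign. Both read 5′ to 3′ from the start codon to the stop codon, joined from the coding exons of GENCODE M21, with capitals at the bases that differ between them.
Mt1 coding sequence: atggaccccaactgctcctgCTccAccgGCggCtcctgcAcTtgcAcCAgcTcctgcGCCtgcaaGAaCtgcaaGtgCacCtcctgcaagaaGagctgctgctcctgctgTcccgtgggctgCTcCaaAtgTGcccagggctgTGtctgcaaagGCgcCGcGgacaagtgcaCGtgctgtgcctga
Mt2 coding sequence: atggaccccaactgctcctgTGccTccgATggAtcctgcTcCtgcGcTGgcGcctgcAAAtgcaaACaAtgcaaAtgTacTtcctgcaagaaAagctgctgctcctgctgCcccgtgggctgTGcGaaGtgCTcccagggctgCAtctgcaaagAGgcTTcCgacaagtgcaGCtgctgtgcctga
Each has 186 bases, which is 61 codons and a stop, and 20 of the codons are cysteine codons in both genes. The sequences differ at 38 bases (79.6% identity), and the longest stretch they share exactly is 20 bases. It is 20 bases over the whole transcripts too. The sources used here do not say how the counting treated reads that match both genes.

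The RefSeq promoter table (GRCm38.p6) held windows for 5 of the 6 genes. The 250 bases before the start that this table uses are shown for the 3 classical targets of MTF-1, because the results below contrast their levels. Capitals mark the core of the metal response element, searched as TGCACNC and TGCGCNC on both strands, where N is any base.
Mt1, chr8:94178839-94179088, plus strand: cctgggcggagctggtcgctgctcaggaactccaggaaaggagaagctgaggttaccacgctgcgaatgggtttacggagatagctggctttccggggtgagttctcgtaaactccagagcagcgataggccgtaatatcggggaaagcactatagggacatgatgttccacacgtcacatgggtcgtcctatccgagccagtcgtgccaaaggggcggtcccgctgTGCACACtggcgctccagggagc
Mt2, chr8:94172368-94172617, plus strand: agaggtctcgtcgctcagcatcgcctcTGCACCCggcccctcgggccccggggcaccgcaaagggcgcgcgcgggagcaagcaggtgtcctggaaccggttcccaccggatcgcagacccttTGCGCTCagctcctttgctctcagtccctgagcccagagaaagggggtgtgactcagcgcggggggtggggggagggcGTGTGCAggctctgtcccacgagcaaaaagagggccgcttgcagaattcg
Slc30a1, chr1:191906531-191906780, plus strand: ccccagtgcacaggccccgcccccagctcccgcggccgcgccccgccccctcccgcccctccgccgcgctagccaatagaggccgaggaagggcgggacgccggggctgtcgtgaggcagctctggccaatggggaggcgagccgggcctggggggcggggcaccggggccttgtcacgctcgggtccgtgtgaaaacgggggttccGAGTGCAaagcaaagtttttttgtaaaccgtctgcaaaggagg
The Mt1 window held 1 such core, 23 bases before the start. The Mt2 window held 3, at 223, 128 and 50 bases before it. The Slc30a1 window held 1, on the minus strand and 43 bases before the start. No core was found in the window of Mtf1 (chr4:124802299-124802548), and of the pair of windows listed for Slc39a8 1 held 1 core. Of 32851 mouse promoters in that table, 21.4% held at least 1 such core in the same length, 5.17% at least 2 and 1.26% at least 3. The start that the table uses for Mt2 lies 46 bases upstream of the GENCODE transcript start, and that of Mt1 lies 7 bases downstream. The distances and the numbers of cores therefore depend on the annotation. Bases after those starts were not searched, so the windows do not show which gene has more metal response elements. The gene spans of Mt1 and Slc30a1 in the RefSeq gene table begin upstream of those starts, so part of each window lies inside the span. These are matches of letters and not measured binding sites.

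Values are given as log2(RPKM + 1), where RPKM is a read count scaled to gene length and library size, or as RPKM itself where genes are compared with each other. The libraries held an estimated 12700000 to 32300000 assigned reads. Cd4 and Lyz2 parted Th17 from myeloid libraries, though Lyz2 was also found in the Th17 cultures. Cd4 was 8.25 to 8.85 in the 10 Th17 libraries and 0.00 to 2.35 in the 3 myeloid ones. Lyz2 was 13.18 to 14.08 in the myeloid libraries and 2.1 to 4.73 in the DKI set and WT. In withCCL17 and noCCL17 it was 8.4 to 8.85, above Cd4 in some of these libraries. The DKI set was uneven. Its replicate 1 had a summed RPKM of 4 Th17 markers of 1770 and its replicate 2 had 244, against 627 and 634 in WT. Transcripts of myeloid cells were present in the sorted Th17 cultures: 10 myeloid markers summed to 1010 to 1290 RPKM in withCCL17, 1100 to 1630 in noCCL17, 115 and 190 in the DKI set and 346 and 203 in WT. In such bulk samples, fewer cells of a type and less RNA per cell cannot be told apart.

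**Figure D1:**
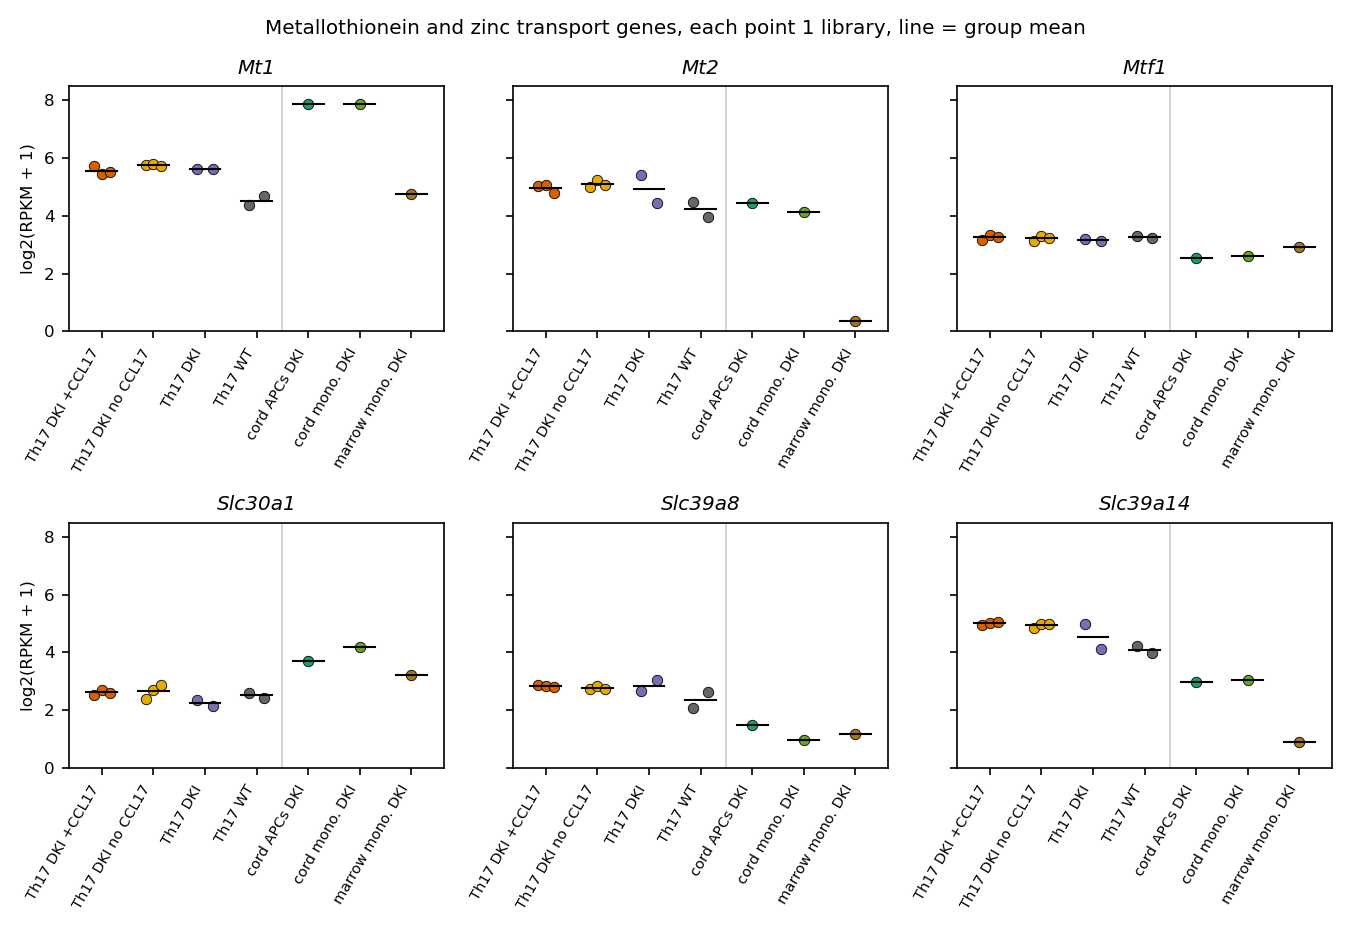
Level of each of the 6 genes, as log2(RPKM + 1), in every library. Each point is 1 library, each bar the mean of its group, and the grey line parts Th17 from myeloid libraries. Mt1 was 5.44 to 5.80 in the 8 DKI Th17 libraries, 4.38 and 4.69 in WT, and 7.87 in both spinal cord libraries. Mt2 and Slc39a14 were lowest in marrow monocytes, at 0.35 and 0.91.

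All 6 genes were detected in all 13 libraries. Mt1 was the most abundant of them per length in 12 of the 13, and Mt2 led in WT replicate 1. In the Th17 libraries Mt1 ranged over 4.38 to 5.80, Mt2 over 3.95 to 5.42 and Slc39a14 over 3.99 to 5.07, while Mtf1 stayed within 3.13 to 3.33, Slc39a8 within 2.06 to 3.03 and Slc30a1 within 2.15 to 2.89. Among the Th17 groups the mean level of Mt1 was 5.56 ± 0.14 in withCCL17 (SD, n = 3), 5.76 ± 0.04 in noCCL17 (n = 3), 5.62 ± 0.01 in the DKI set (n = 2) and 4.53 ± 0.22 in WT (n = 2). The 3 DKI means lie within 0.21 of each other and the WT mean lies below all of them. The withCCL17 and noCCL17 cultures had no WT group of their own. Against WT, their genotype and culture set cannot be told apart. The spinal cord libraries, at 7.87 each, were higher than every Th17 library, and marrow monocytes, at 4.76, lay just above the WT Th17 cells.

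The DKI and WT Th17 cultures bear on how Th17 cells differ when STAT5 cannot form tetramers. Mt1, the metal-buffering gene on which the set was chosen, was 5.62 and 5.61 in the DKI set, against 4.38 and 4.69 in WT, a difference of 1.08 on the log2 scale. In RPKM that is 48.3 and 47.9 in DKI and 19.9 and 24.7 in WT, a ratio of means of 2.16. Both DKI libraries lay above both WT libraries. Mt1 was chosen for differing here, so that separation supports nothing. The same-numbered pairs differed by 1.24 and 0.92.

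Mt2, its neighbour with the same role, was 5.42 and 4.46 in DKI, against 4.50 and 3.95 in WT. The mean was 0.72 higher in DKI, but the groups overlapped: only DKI replicate 1 stood above both WT libraries. Without that library the difference was 0.24, and without DKI replicate 2 it was 1.19. The ratio of Mt1 to Mt2 in RPKM also varied inside each genotype. It was 1.16 and 2.28 in DKI and 0.919 and 1.71 in WT, so the pair of genes did not keep a fixed proportion in either group. Added together, Mt1 and Mt2 reached 90.1 and 68.9 RPKM in DKI, against 41.5 and 39.2 RPKM in WT.

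The importers followed different libraries. Slc39a8 was 2.66 and 3.03 in DKI, against 2.06 and 2.64 in WT, a difference of 0.50 with groups that did not overlap, although 2.66 in DKI and 2.64 in WT lay side by side. Without WT replicate 1 the difference was 0.21, and without WT replicate 2 it was 0.78. Slc39a14 was 4.99 and 4.11 in DKI, against 4.21 and 3.99 in WT. Its mean difference of 0.45 rested on DKI replicate 1: it was 0.01 without that library and 0.89 without DKI replicate 2. The same DKI library was also the higher of its group for Il17a, the gene of the signature Th17 cytokine (10.38 and 7.57 in DKI, 8.67 and 8.67 in WT), and for Ndrg1, a stress-induced gene that is also known to respond through MTF-1 (7.36 and 5.79 in DKI, 6.06 and 5.91 in WT). The part of this uneven Th17 signature in the Mt2 and Slc39a14 values was not tested.

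The exporter and the sensor lay on the other side. Slc30a1 was 2.37 and 2.15 in DKI, against 2.61 and 2.44 in WT, a difference of -0.27. Mtf1 was 3.19 and 3.13 in DKI, against 3.30 and 3.23 in WT, a difference of -0.11. Both DKI libraries were below both WT libraries for each gene.

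Over all 11078 genes tested in this comparison, the groups did not overlap in 19.9% with DKI higher and in 20.1% with DKI lower, and nothing is read from the members' counts of 2 and 2. With limma and Benjamini-Hochberg adjustment, 0 genes of the whole table (0%) were called at an adjusted p under 0.05, where 1879 had an unadjusted p under 0.05 and the smallest adjusted p was 0.0659. All 9 myeloid markers that passed the filter were lower in DKI on average, with a median difference of -0.89, and 7 of them without overlap. Their part in the zinc gene values was not tested.

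Among related genes in the same comparison, Mt3, the metallothionein best known from brain, was 3.03 and 3.54 in DKI, against 2.53 and 2.77 in WT. Mt4, known from squamous epithelium, was listed at 0 in all 13 libraries. Of 9 other Slc30a exporters 6 were tested and 5 were higher on average in DKI, with a median difference of 0.22 against 0.03 over all genes. Of 12 other Slc39a importers 9 were tested and 8 were higher, with a median of 0.06. Over all genes tested, 54.7% were higher on average in DKI. The exporter with the largest difference was Slc30a6, which encodes a Golgi zinc transporter, at a mean of 3.56 in DKI and 3.28 in WT, followed by Slc30a2, whose mean was 0.24 higher in DKI with overlapping groups. Among the importers it was Slc39a11, at 3.76 in DKI and 3.37 in WT, with overlapping groups, and then Slc39a4, at 4.27 in DKI and 3.94 in WT, without overlap. None of these was called. The heatmap of group means sets the whole family side by side in all 7 groups.

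**Figure D2:**
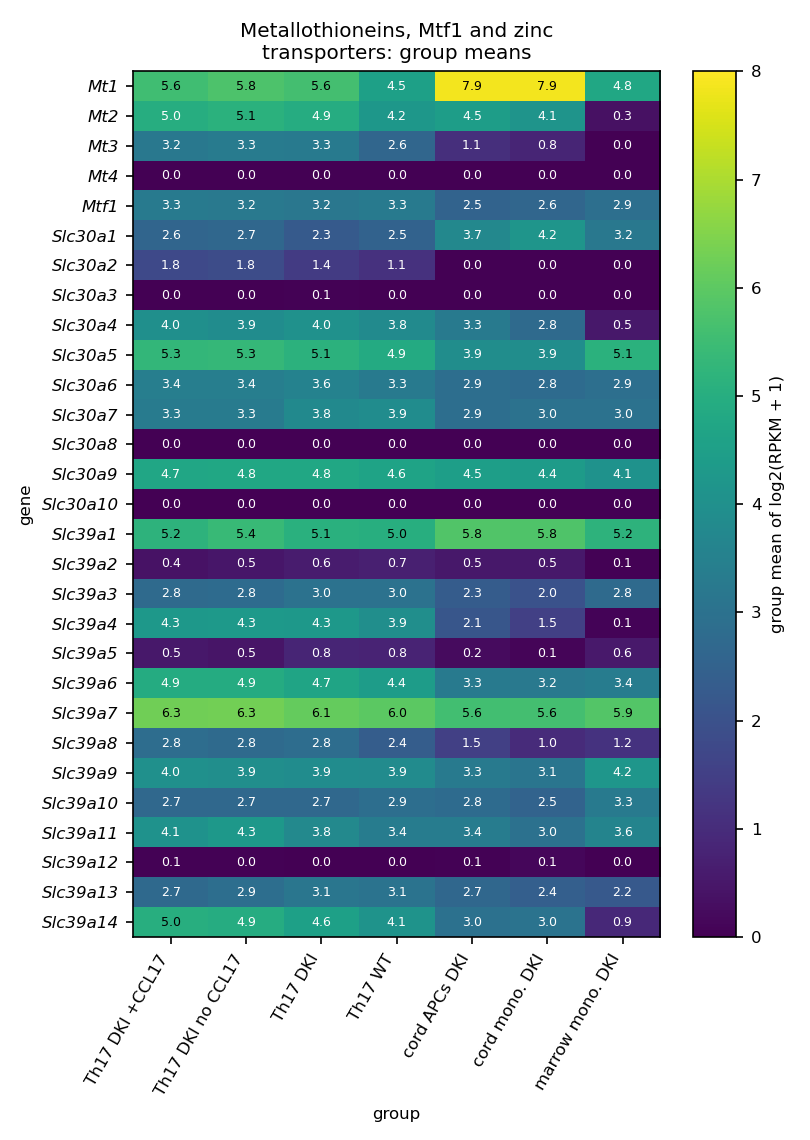
Group means of log2(RPKM + 1) for 4 metallothionein genes, Mtf1 and the Slc30a and Slc39a zinc transporter genes in 7 groups, with colour and number giving the same value. Slc39a7 was the highest of the transporter genes in the Th17 groups and in marrow, Slc39a1 was the highest in both cord groups, and Mt4 was at 0 throughout.

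Of 7 other genes known to respond through MTF-1, 5 were tested, and 4 were higher and 1 lower in DKI, with a median of 0.14. The list was not split by the direction of response, so its counts do not measure MTF-1 activity. The lower gene was Slc39a10, at 2.2 and 3.22 in DKI, against 2.55 and 3.23 in WT. It was also counted among the importers. Ndrg1 had the largest difference on that list, with means of 6.58 in DKI and 5.98 in WT, and Selenoh, which encodes a nuclear selenoprotein, averaged 6.17 in DKI and 5.97 in WT, both with overlapping groups. Lists of other inputs to metallothionein genes gave mixed values. Of 6 tested glucocorticoid-induced genes 2 were higher and 4 lower in DKI, with a median of -0.27: Fkbp5, a chaperone of the glucocorticoid receptor, averaged 5.64 in DKI and 5.16 in WT, and Dusp1, a MAP kinase phosphatase, 3.40 in DKI and 3.86 in WT. Of 6 tested genes of the oxidative stress response that NRF2 controls 5 were higher, with a median of 0.19. Srxn1, which repairs oxidised peroxiredoxins, averaged 4.11 in DKI and 3.66 in WT, and Txnrd1, a thioredoxin reductase, 6.05 in DKI and 5.70 in WT. Of 6 tested copper-handling genes 3 were higher and 3 lower, with a median of -0.07. Ccs, which loads copper onto superoxide dismutase, averaged 5.01 in DKI and 5.33 in WT, and the copper pump gene Atp7a 2.17 in DKI and 2.42 in WT, each without overlap.

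**Figure D3:**
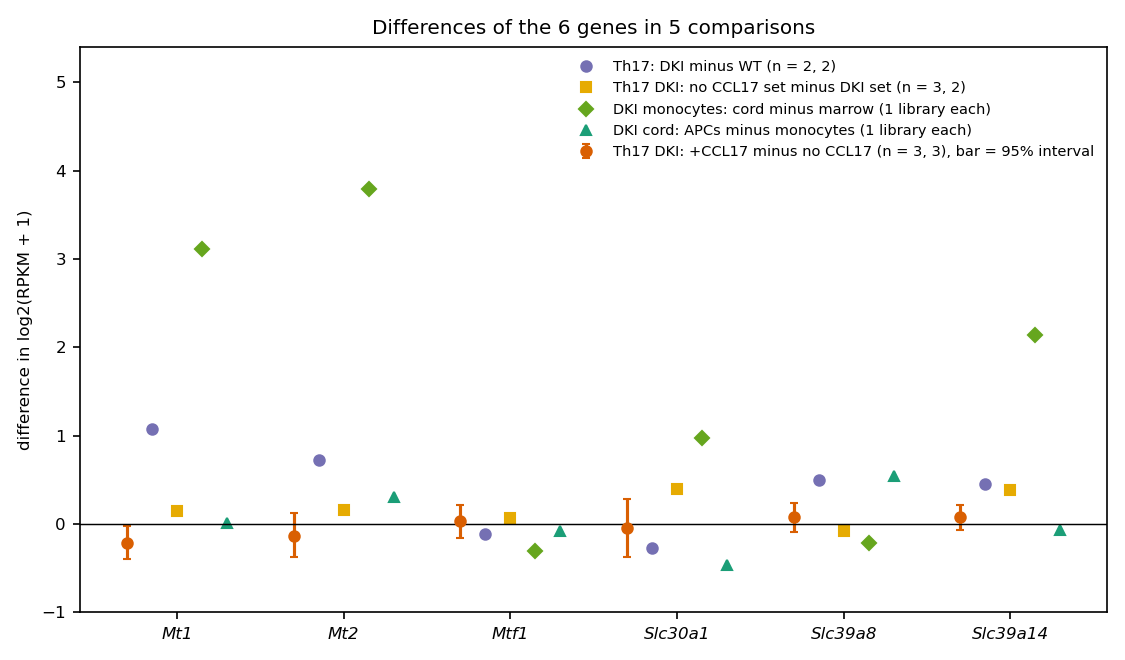
Difference in log2(RPKM + 1) for each gene in 5 comparisons, with the number of libraries in the legend. The bars are 95% intervals of the limma fit and exist only for withCCL17 minus noCCL17. Mt1 stood at 1.08 for DKI minus WT, 3.11 for cord minus marrow monocytes and -0.21 for withCCL17 minus noCCL17.

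CCL17 is a chemokine that binds CCR4 on T cells, and DKI cultures with and without it were compared to ask how it changes Th17 cells that lack STAT5 tetramers. The rule that chose the genes names Mt1 between DKI and WT and not this comparison, so the CCL17 comparison was tested. Earlier results of these data were known when the members were chosen. No change was called for any of the 6 genes. Mt1 was 5.72, 5.44 and 5.52 in withCCL17, against 5.77, 5.80 and 5.73 in noCCL17. All 3 libraries with CCL17 lay below the 3 without it, and the same-numbered pairs differed by -0.06, -0.36 and -0.21. The limma estimate was -0.21 ± 0.08 (SE, n = 3 each, 95% interval -0.40 to -0.02), which is a ratio of mean RPKM of 0.867. Its unadjusted p was 0.0383 and its adjusted p, over 11297 genes, was 0.999. Groups failed to overlap in 4.28% of all genes with withCCL17 lower and in 5.20% with it higher, and 1 of the 6 members was in the lower class.

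Mt2 was 5.05, 5.07 and 4.80 in withCCL17, against 4.99, 5.25 and 5.06 in noCCL17, and the groups overlapped. Its limma estimate was -0.13 (95% interval -0.37 to 0.12). The intervals for the transporters were -0.37 to 0.28 for Slc30a1, -0.09 to 0.24 for Slc39a8 and -0.07 to 0.22 for Slc39a14, and that for Mtf1 was -0.16 to 0.22. Each of these 5 genes had overlapping groups and an adjusted p of 0.999. An adjusted p of this size does not show that levels were alike, and the intervals give the range of differences that the libraries allow. The ratio of Mt1 to Mt2 was 1.60, 1.30 and 1.67 in withCCL17, against 1.74, 1.48 and 1.60 in noCCL17.

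Over the whole table the limma fit called 0 of 11297 genes (0%), with 411 at an unadjusted p under 0.05 and a smallest adjusted p of 0.976. With the replicate number of the sample titles as a block (the replicate block), 2 genes were called, neither of them among the 6. Mt1 then had the same estimate and an adjusted p of 0.235. Over all genes tested, 45.8% were higher on average in withCCL17, with a median of -0.01. Of the other zinc importers, 7 of 9 tested were lower on average in withCCL17. Slc39a1, which encodes the widely expressed importer ZIP1, averaged 5.19 in withCCL17 and 5.38 in noCCL17, and Slc39a11 averaged 4.07 in withCCL17 and 4.27 in noCCL17. Both pairs of groups were separated, and neither gene was called (adjusted p = 0.999 in limma). Of 6 exporters 3 were higher and 3 lower. Slc30a4 averaged 3.98 in withCCL17 and 3.88 in noCCL17, and Slc30a2 1.78 in withCCL17 and 1.85 in noCCL17. Mt3 averaged 3.20 in withCCL17 and 3.32 in noCCL17.

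No gene was called on any of the lists for MTF-1 targets, copper, glucocorticoid or NRF2 responses. The largest differences on the MTF-1 list were -0.24 for Slc40a1, which encodes the iron exporter ferroportin, and -0.12 for Selenoh. On the copper list they were -0.31 for Slc31a2, a copper transporter gene, and -0.15 for Cox17, which carries copper to cytochrome oxidase. On the glucocorticoid list they were -0.22 for the kinase gene Sgk1 and -0.11 for Tsc22d3. On the NRF2 list they were -0.30 for Hmox1, a heme-degrading enzyme gene, and 0.10 for Gclc, which starts glutathione synthesis. Of these 8 genes only Cox17 had groups that did not overlap. Each of the 10 myeloid markers was lower on average in withCCL17, with a median of -0.24. All 7 T cell markers were lower, with a median of -0.06, and all 5 B cell markers were higher, with a median of 0.15. Over all genes tested the median was -0.01. The part of these markers in the Mt1 value was not tested. The labels do not say that libraries came from separate animals or cultures, so these p-values measure only the spread between libraries.

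The noCCL17 cultures and the DKI set have the same genotype and no added CCL17 named, so setting them side by side shows how far the 6 genes move between sets of nominally like cultures. They share the DKI libraries with the comparison to WT. Mt1 averaged 5.76 in noCCL17 and 5.62 in the DKI set, a difference of 0.15 with groups that did not overlap. Slc30a1 was 2.39, 2.69 and 2.89 in noCCL17, against 2.37 and 2.15 in the DKI set. That is a difference of 0.40, larger in size than its difference between DKI and WT. Slc39a14 was 4.86, 4.97 and 5.0 in noCCL17, close to the 4.99 of DKI replicate 1 and above the 4.11 of replicate 2. Mt2, Mtf1 and Slc39a8 differed by 0.16, 0.07 and -0.08, with overlapping groups.

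Groups failed to overlap in 26.0% of 11507 genes with noCCL17 higher and in 29.6% with noCCL17 lower, beside 2 of 6 members higher and 0 lower. All 10 myeloid markers were higher in noCCL17, with a median difference of 4.03. The 5 B cell markers, which summed to 57.1, 76.1 and 90.1 RPKM in noCCL17 and to 6.45 and 15.5 RPKM in the DKI set, were all higher, with a median of 2.22. All 5 neutrophil and granule markers tested were higher as well, with a median of 1.88, and all 7 T cell markers were lower, with a median of -0.35, each without overlap. Slc40a1, known from macrophages, averaged 3.15 in noCCL17 and 0.02 in the DKI set. Hmox1 averaged 7.98 in noCCL17 and 3.60 in the DKI set, and Slc7a11, a cystine importer gene, 3.86 in noCCL17 and 0.79 in the DKI set. Slc31a2 and Slc31a1, both copper transporter genes, were 1.48 and 0.84 higher in noCCL17. Ndrg1 averaged 7.32 in noCCL17 and 6.58 in the DKI set, Sgk1 4.69 in noCCL17 and 3.84 in the DKI set, and the transcription factor gene Klf9 2.03 in noCCL17 and 1.37 in the DKI set. Among the zinc transporters, Slc30a7 averaged 3.31 in noCCL17 and 3.81 in the DKI set, and Slc30a2 1.85 in noCCL17 and 1.39 in the DKI set. Slc39a11 averaged 4.27 in noCCL17 and 3.76 in the DKI set, and Slc39a1 5.38 in noCCL17 and 5.07 in the DKI set. Mt3 averaged 3.32 in noCCL17 and 3.28 in the DKI set. The part of the marker transcripts in any of the 6 genes was not tested.

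Across the 10 Th17 libraries, the genes whose levels ran most like Mt1 were Nob1 (Pearson r = 0.973 over 11789 genes ranked), Tsfm (0.969), Thyn1 (0.968), Ash2l (0.964) and Sec61b (0.964). Nob1 encodes a ribosome assembly factor, Tsfm a mitochondrial translation factor, Ash2l a subunit of histone H3 lysine methyltransferase complexes and Sec61b a subunit of the protein channel of the endoplasmic reticulum. Nob1 was 5.06 and 5.12 in the DKI set, against 4.62 and 4.64 in WT; as these genes were picked for running like Mt1, that difference follows from the choice. Of the zinc genes, Slc39a8 had r = 0.793 with Mt1, Mt2 0.722 and Slc39a14 0.708, while Slc30a1 had 0.01 and Mtf1 -0.346. These 10 points fall into groups that share genotype, culture set and depth, so the values describe these libraries and are given without a test.

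The monocytes were compared between tissues to ask what changes as they reach the inflamed cord. With 1 library a group there is no replicate check, and intervals cover counting error in estimated reads, not the spread between animals. Mt1 was 7.87 in cord monocytes, against 4.76 in marrow monocytes. In RPKM that is 233 in cord and 26.0 in marrow, a ratio of 8.94 (95% exact interval 8.11 to 9.88) from an estimated 3387 reads in cord and 455 in marrow. Mt1 ranked 286th from the top among all genes in cord monocytes and 3003rd in marrow monocytes. Mt2 was 4.14 in cord, against 0.35 in marrow, where it rested on about 5 reads. Its ratio of 59.8 is accordingly loose, with an interval of 25.3 to 186.

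Slc39a14, the ZIP14 importer gene, was 3.05 in cord and 0.91 in marrow, a ratio of 8.29 (6.93 to 9.97). Slc30a1 was 4.18 in cord and 3.21 in marrow, a ratio of 2.07 (1.94 to 2.21). Thus the 3 classical MTF-1 targets and 1 importer were all higher in the cord library. Mtf1 was 2.63 in cord and 2.93 in marrow, a difference of -0.30 that became 0.07 once each library was centred on its median gene. Slc39a8 was 0.97 in cord and 1.17 in marrow, a difference of -0.21 that became 0.16 after the same centring, from 95 reads in cord and 150 in marrow. That centring removes a shift of -0.37 in the median gene between these libraries.

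Of 8182 genes with RPKM 5 or more in either library, 6.23% were 4-fold or more higher in cord and 5.13% were 4-fold or more lower. Of the 6 members 3 (Mt1, Mt2 and Slc39a14) passed it upwards and 0 downwards. Mt1 had a larger log2 difference than 96.7% of those genes, Mt2 than 97.9% and Slc39a14 than 94.2%. In all, 31.5% of those genes were higher in cord, and their median difference was -0.37. In the rest of the zinc families, of 9 tested other importers 3 were higher and 6 lower in cord, with a median of -0.27, and of 5 exporters 2 were higher and 3 lower, with a median of -0.01. Slc30a4, which loads zinc into vesicles, was 2.78 in cord and 0.51 in marrow. Slc39a4, best known as the gut zinc importer gene, was 1.51 in cord and 0.08 in marrow. Slc30a5, a Golgi zinc transporter gene, was 3.92 in cord and 5.10 in marrow, and Slc39a9 3.12 in cord and 4.21 in marrow.

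Of 6 tested other genes known to respond through MTF-1, 1 was higher and 5 were lower in cord. Their median was -0.79, against -0.37 over the 8182 genes. This list was not split by the direction of response. The 5 lower genes include the importer gene Slc39a10, at 2.54 in cord and 3.26 in marrow. Selenoh was 4.36 in cord and 6.26 in marrow, and Csrp1, which encodes a zinc-binding LIM domain protein, was 4.82 in cord and 5.75 in marrow. Genes induced by glucocorticoid were split: of 7 tested, 4 were higher and 3 lower, with a median of 0.79. Sgk1, a kinase gene, was 9.31 in cord and 4.28 in marrow, the clock gene Per1 was 6.23 in cord and 3.87 in marrow, and Fkbp5 was 4.51 in cord and 5.95 in marrow. Of 6 tested NRF2 target genes 5 were higher in cord, with a median of 1.68. Slc7a11 was 4.04 in cord and 0.33 in marrow, and Srxn1 was 4.72 in cord and 2.37 in marrow. Of 6 tested copper genes 5 were higher, with a median of 0.71, among them Atox1, a copper chaperone gene, at 8.36 in cord and 7.26 in marrow.

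Transcripts of other cells also differed between the tissues. In cord monocytes, 6 neural and glial markers summed to 13.4 RPKM, against 0.163 RPKM in marrow, with 0 of them at 0 in cord and 4 of them at 0 in marrow. The 7 microglia markers summed to 438 RPKM in cord and 144 RPKM in marrow, and the 7 T cell markers to 26.4 RPKM in cord and 0.297 RPKM in marrow. The 7 neutrophil and granule markers summed to 77.3 RPKM in cord and 1680 RPKM in marrow. Their part in the differences of the zinc genes was not tested.

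**Figure D4:**
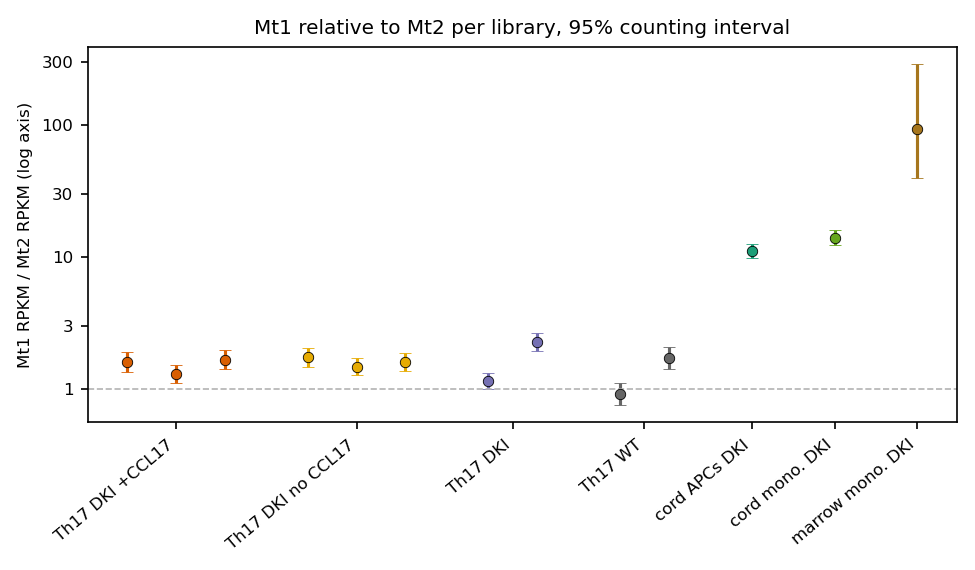
Ratio of Mt1 to Mt2 in RPKM, on a log axis, in every library. Bars are 95% exact counting intervals. The 10 Th17 libraries lie between 0.919 and 2.28, cord APCs at 11.2, cord monocytes at 14.0 and marrow monocytes at 93.3 with a wide interval because Mt2 had about 5 reads there.

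The balance of the metallothionein pair set myeloid libraries apart from T cell libraries. The ratio of Mt1 to Mt2 was 11.2 (9.89 to 12.6) in cord APCs, 14.0 (12.3 to 15.9) in cord monocytes and 93.3 (39.7 to 289) in marrow monocytes, against 0.919 to 2.28 in the 10 Th17 libraries. No interval of a myeloid library reached any Th17 value. The noCCL17 cultures, whose myeloid markers were higher than in the DKI set, had ratios of 1.74, 1.48 and 1.60. The DKI set had 1.16 and 2.28. The part of myeloid transcripts in these ratios was not tested. Slc39a14 and Slc39a8 were lower in all 3 myeloid libraries than in every Th17 library, with 0.91 to 3.05 against 3.99 to 5.07 for Slc39a14 and 0.97 to 1.5 against 2.06 to 3.03 for Slc39a8. Slc30a1 was higher in all 3, at 3.21 to 4.18 against 2.15 to 2.89. The tissue, the sort and the culture step differ together between these cell types and cannot be told apart.

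APCs and monocytes of the spinal cord bear on how monocytes change as they mature there, again with 1 library each. Mt1 was 7.87 in both, with a ratio of 1.0 (0.956 to 1.05), and its log2 difference of 0.01 became -0.02 after median centring. Mt2 was 4.45 in APCs and 4.14 in monocytes, a ratio of 1.26 (1.06 to 1.49). Slc39a8 was 1.5 in APCs and 0.97 in monocytes, a ratio of 1.93 (1.49 to 2.50) from 168 reads in APCs and 95 in monocytes. Slc30a1 was 3.72 in APCs and 4.18 in monocytes, a ratio of 0.712 (0.667 to 0.759). The intervals of Mtf1, 0.857 to 1.02, and of Slc39a14, 0.863 to 1.04, included 1.

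A 4-fold or larger difference was found in 0.240% of 7499 genes with APCs higher and in 0.0800% with APCs lower, and 0 of the 6 members passed in either direction. Of 9 other importers 8 were higher in APCs, with a median of 0.24 against 0.03 over the 7499 genes. Of those 7499 genes, 55% were higher in APCs. Listed genes needed RPKM 1 in either library, and the 7499 genes needed RPKM 5. The importers that differed most were Slc39a4, at 2.14 in APCs and 1.51 in monocytes, and Slc39a11, at 3.37 in APCs and 2.97 in monocytes. Of 5 exporters 4 were higher, with a median of 0.08, and Slc30a4 was furthest, at 3.30 in APCs and 2.78 in monocytes, followed by Slc30a7, at 2.89 in APCs and 3.02 in monocytes. Mt3 was 1.09 in APCs and 0.82 in monocytes. On the MTF-1 list 5 of 6 were higher in APCs, with a median of 0.18, the largest differences being 0.68 for Slc40a1 and 0.63 for Csrp1. On the copper list 1 of 6 was higher, with a median of -0.19, and Ccs differed by 0.29 and Atp7a by -0.24. On the glucocorticoid list 2 of 6 were higher, with a median of -0.10, and Klf9 differed by -0.95 and Fkbp5 by -0.25. On the NRF2 list 2 of 6 were higher, with a median of -0.17, and Srxn1 differed by -0.52 and Txnrd1 by -0.33. The 7 microglia markers summed to 1090 RPKM in APCs, against 438 RPKM in monocytes. Of 6 classical monocyte markers 5 were lower in APCs, 3 of them 4-fold or more, with a median of -1.75, and all 5 dendritic cell markers tested were higher, with a median of 1.16. The part of these markers in the values of the zinc genes was not tested.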

How the data were processed

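RNA was sequenced from 13 mouse libraries, and the authors deposited 1 table of log2 values for 21073 genes, read here as log2(RPKM + 1). Reads were processed with Subread and featureCounts against mm10, per the submitters' processing notes. Their versions, settings and strand use are not given in the sources used here. Gene symbols came from the RefSeq gene table through 20857 matched IDs, with 216 unmatched. Deposited values of 0.0001 mark genes without reads and were set to 0. The column named for cord MDC was read as the monocyte-derived APC sample. Read totals and read numbers were estimated from the steps of low RPKM values, of which 70.7% to 75.0% per library lay within 0.1 read of a whole number. The read numbers of Mtf1 and Slc39a14 use annotated lengths and are approximate. Counting intervals are exact (Clopper-Pearson, 95%) and cover counting error only.

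Genes were tested where RPKM reached 1 in at least 3 libraries (withCCL17 over noCCL17) or 2 libraries (other Th17 comparisons). For 1 library against 1 the figures over all genes used a minimum of RPKM 5 in either. Genes of the lists there needed RPKM 1 in either, so their medians and the all-gene medians rest on unlike minimums. All 6 members were counted at any level, and Slc39a8 lay below RPKM 5 in the myeloid libraries. The fit was limma 3.58.1 in R 4.3.3, with Benjamini-Hochberg adjustment. It used the 6 withCCL17 and noCCL17 libraries alone for that comparison and the 10 Th17 libraries for the others. It was first run on simulated data with independent noise in each library. The real libraries share deviations, as given below, so that run does not show how the fit handles them. The pseudocount was 1, so folds of low genes are understated. Alternatives were a pseudocount of 0.1, no filter, median centring, quantile normalization, the replicate block, other fits and leaving out each library. Members and gene lists were chosen with earlier results of these data known. The text names all 6 members and the 2 genes of each list with the largest difference in a comparison. It also names the 5 genes most like Mt1 after the exclusions given with them. Fkbp5 in cord over marrow monocytes, Slc39a10 and the marker genes were named beyond that rule. Same-numbered withCCL17 and noCCL17 libraries deviated together over all genes (r = 0.77, 0.51 and 0.52). Replicates 2 and 3 did so as much across numbers (r = 0.5 and 0.53), so only replicate 1 was set apart by these values. The numbers were used as pairs only in the replicate block and in the same-numbered differences, and the main fit was unpaired. For same-numbered DKI and WT libraries r was 0.45. 1 gene of the Th17 marker list is not reported here.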

Additional observations from a re-analysis of the deposited data

How the results depend on the processing

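Counts of called genes moved most. Between withCCL17 and noCCL17 the replicate block called 2 genes in place of 0. Leaving out libraries called 0 in each case. Between DKI and WT the count was 23 without a filter and 4 after quantile normalization, in place of 0, and leaving out 1 library gave 0 to 580, with 580 without DKI replicate 2, 123 without WT replicate 2 and 4 without DKI replicate 1. Each of these leaves 1 library in an arm, which is assumed to vary like the other Th17 groups in the fit. Between noCCL17 and the DKI set it was 3823, against 833 with the replicate block in a fit of these libraries alone, 2423 in that fit without the block and 2513 to 3526 with 1 library left out. The cause was not tested.

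For the members, Mt1 between withCCL17 and noCCL17 stayed between -0.28 and -0.15 over 14 settings, the reported one included, with an adjusted p in limma of 0.235 to 1. In that comparison Mtf1 ranged from -0.01 to 0.08, with -0.01 without withCCL17 replicate 2 or noCCL17 replicate 1, and Slc30a1 from -0.18 to 0.07, with 0.07 without noCCL17 replicate 3. Mt1 between DKI and WT stayed between 0.93 and 1.24 when 1 library was left out. The set was chosen on that difference, so this range is no support for it. Between noCCL17 and the DKI set, Mt1 was 0.11 after median centring and 0.09 after quantile normalization, and Mt2 ranged from -0.32 to 0.64 with 1 library left out. Without DKI replicate 1 Slc39a14 was 0.84 there and Slc39a8 was -0.26, and without DKI replicate 2 they were -0.05 and 0.11. Between cord and marrow monocytes, Mt1 was 3.48 after median centring and Mt2 5.47 with a pseudocount of 0.1, since its marrow level was near 0. No other member value changed direction or its side of the threshold in the settings run, apart from Slc39a8 and Mtf1 in cord over marrow and Mt1 in APCs over monocytes after median centring. No group held enough libraries to look for single outlying values.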
